A study of Mus musculus with 8 samples.

Results

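The mitochondrial ribosomal proteins were examined as a set of 78 genes, taken as every gene whose mouse symbol starts with Mrpl or Mrps followed by a digit in the authors' normalised table of 13751 genes, leaving out 5 pseudogenes of the same families. By symbol, 49 belong to the large subunit (Mrpl) and 29 to the small subunit (Mrps). The cells were naive CD4 T cells from the peripheral lymph nodes of 4 wild-type C57BL/6 mice, whose age is not given in the labels. Cells of each mouse were activated for 20 h with coated antibodies to CD3 and CD28, each at 4 µg/mL, and the cultures were either left as control (4 libraries) or supplemented with iron, called FAC in the labels (4 libraries). Both groups therefore shared genotype, strain, activation and time, and each mouse gave 1 control and 1 FAC library. The dose of FAC and any vehicle given to the control cultures are not stated in the labels, so the comparison covers a single unstated iron supplement at 1 time in bulk RNA. In bulk RNA, fewer cells expressing a gene and less of its RNA per cell cannot be told apart.

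Mitochondria keep their own ribosome, which makes the core membrane subunits of the respiratory chain and ATP synthase from messenger RNAs encoded by mitochondrial DNA. All of its proteins are encoded in the nucleus, made on cytosolic ribosomes and imported, and they are assembled around ribosomal RNAs encoded by the mitochondrial genome. The small subunit decodes the message, and the large subunit holds the peptidyl transferase centre and the tunnel through which the new chain leaves towards the inner membrane. Part of the proteins descend from bacterial ribosomal proteins and the others are found only in mitochondria. Activated T cells build up mitochondria as they grow, and several mitoribosomal proteins hold iron-sulphur clusters in structures of the mammalian mitoribosome.

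RefSeq promoter windows of 300 bases, 250 before and 50 after the annotated start, were matched by symbol to 69 of the 78 genes, which gave 75 windows because 3 genes had more than 1 start. Mrpl13, Mrpl15, Mrpl19, Mrpl38, Mrpl4, Mrpl54, Mrps28, Mrps34 and Mrps35 were unmatched. The windows were searched on both strands for the letters of 4 motifs, GCGCA and GCGC with 1 base between them for NRF1, CCGGAAGT for ETS factors including GABP, AANATGGC for YY1 and CACGTG for the E-box that Myc can bind. The YY1 letters were found in 21 of the 75 windows, 28.0%, against 6.05% of all 32851 RefSeq windows of that length. The NRF1 letters were found in 13 (17.3%) against 4.60% of all windows. The ETS letters were found in 12 (16.0%) against 3.89%, and the E-box in 7 (9.33%) against 7.15%. The windows counted as all were not matched to those of the members for GC content or for expression of their genes. The 7 windows with an E-box belong to 5 of the 69 genes, since 3 overlapping windows of Mrpl2 hold the same letters. Of the 75 windows, 40 held at least 1 of the NRF1, ETS or YY1 letters, and 6 held more than 1 of these 3 kinds. The median log2 change with FAC was -0.09 for the 40 genes with such a match and -0.10 for the 29 without.

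Promoter windows are printed for the 2 members that passed the test of the iron comparison, Mrps14 and Mrpl20, and for Mrpl10 and Mrpl45, which lie on either side of Tbx21, a gene far lower with FAC. They are written 5′ to 3′ on the gene's strand with the annotated start at base 251, and capitals mark motif matches. They come from RefSeq on GRCm38.p6, while the deposited counts were made on GRCm39, so the coordinates hold for the older build only.
Mrps14: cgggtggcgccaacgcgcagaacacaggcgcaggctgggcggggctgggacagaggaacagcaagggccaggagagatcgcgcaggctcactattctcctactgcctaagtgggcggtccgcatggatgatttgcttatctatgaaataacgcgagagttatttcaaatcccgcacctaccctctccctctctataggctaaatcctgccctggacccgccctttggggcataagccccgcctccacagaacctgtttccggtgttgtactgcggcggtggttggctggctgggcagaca
Mrpl20: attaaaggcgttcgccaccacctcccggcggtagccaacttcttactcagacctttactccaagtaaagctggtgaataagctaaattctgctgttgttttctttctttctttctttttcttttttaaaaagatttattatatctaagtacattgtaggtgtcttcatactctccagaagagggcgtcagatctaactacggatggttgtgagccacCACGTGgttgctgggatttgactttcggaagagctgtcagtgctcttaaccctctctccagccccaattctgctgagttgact
Mrpl10: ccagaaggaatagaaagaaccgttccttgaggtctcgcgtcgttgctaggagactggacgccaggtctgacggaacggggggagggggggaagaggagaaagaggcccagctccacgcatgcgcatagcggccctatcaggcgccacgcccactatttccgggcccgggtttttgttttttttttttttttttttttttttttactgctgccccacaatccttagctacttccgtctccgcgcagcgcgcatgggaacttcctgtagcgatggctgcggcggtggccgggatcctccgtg
Mrpl45: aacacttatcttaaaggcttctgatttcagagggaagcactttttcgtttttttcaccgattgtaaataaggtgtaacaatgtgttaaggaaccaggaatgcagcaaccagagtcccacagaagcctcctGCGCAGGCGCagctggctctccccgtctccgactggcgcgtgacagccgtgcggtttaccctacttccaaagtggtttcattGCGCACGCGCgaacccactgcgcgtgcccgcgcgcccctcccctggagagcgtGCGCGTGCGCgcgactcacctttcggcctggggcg
The Mrps14 window is chr1:160194965-160195264 and holds none of the 4 motifs as spelled. The Mrpl20 window is chr4:155802628-155802927 and holds 1 E-box. The Mrpl10 window is chr11:97041332-97041631, with no match, and the Mrpl45 window is chr11:97315466-97315765, with 3 NRF1 matches. All 4 genes lie on the plus strand. A match describes letters in the window and says nothing of whether a factor was bound in these cells.

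The 8 libraries held 25410299 to 37350654 estimated counts, and all 78 genes passed the filter on low counts, with 421 (Mrpl14) to 8894 (Mrpl12) counts per library. In the markers fixed for other cells, the defining genes Lyz2 (myeloid cells) and Ncr1 (NK cells) were listed at 0 TPM in all 8 libraries, and the summed TPM of both lists stayed at 0.20 or below. The B cell list summed to 0.43 TPM or below in each library. The 2 CD8 T cell markers summed to 8.36 to 10.9 TPM in control and 6.60 to 9.55 TPM in FAC, with Cd8b1 lower in 4 of 4 mice at a log2 change of -0.30 (edgeR adjusted p = 0.242), and the stromal markers to 3.59 to 5.13 and 4.32 to 6.21 TPM. The 7 CD4 T cell markers summed to 2012 to 2083 TPM in control and 2112 to 2163 TPM in FAC, groups that did not overlap. None of the 7 passed the test, and with the mouse as a block 1 was called higher, beside 4.07% of all genes. Erythroid genes summed to 0 to 13.5 TPM in control and 0 in FAC. The part of these marker differences in the results on the mitoribosome was not tested.

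With FAC, most mitochondrial ribosomal protein genes stood slightly below control, and only 2 of the 78 passed the test. Mrps14, a small subunit protein related to bacterial S14, and Mrpl20, a large subunit protein related to bacterial L20, fell, by 0.21 and 0.18 on the log2 scale (edgeR quasi-likelihood test, Benjamini-Hochberg adjusted p = 0.0468 and 0.0417, n = 4 libraries a group). These 2 are 2.56% of the members, beside 1.1% of all 13378 genes tested that were called lower. No member was called higher, at an unadjusted p under 0.05 or by DESeq2 or limma-voom either, beside 2.18% of all genes called higher by edgeR. With the mouse as a block, 6 members were called lower (Mrps14, Mrps5, Mrps28, Mrpl20, Mrpl50 and Mrpl53), beside 2.8% of all genes, and 0 higher, beside 4.07%, with 6.87% of all genes called in either direction. Without the block, the p-values measure the spread between libraries within a group and leave out the pairing by mouse. With the block, they measure the spread of the difference within a mouse over these 4 mice.

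The log2 changes of the 78 members ran from -0.22 (Mrps28) to 0.04 (Mrps24), with a median of -0.09, a difference of -5.86%, against a median of -0.00 over all genes tested. The change in edgeR was below 0 for 72 of 78 members (92.3%), beside 50.4% of all genes. The count of members was 59 when log2(TPM + 1) was compared, a scale for which the share of all genes is not given. On that scale 14 members below 0 in edgeR stood above 0 (Mrpl10, Mrpl14, Mrpl24, Mrpl35, Mrpl38, Mrpl40, Mrpl45, Mrpl51, Mrpl52, Mrpl55, Mrps15, Mrps23, Mrps30 and Mrps36), and Mrps10 stood below 0 instead of above. At an unadjusted p under 0.05, 22 members (28.2%) were lower, beside 8.14% of all genes, with 0 members higher, beside 10.3%. The median standard error of a member's change was 0.05, so single changes of the median size could seldom be told from 0. The 95% intervals of all 78 changes, unadjusted, lay between -0.39 and 0.20, with 22 entirely below 0 and none entirely above.

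**Figure D1:**
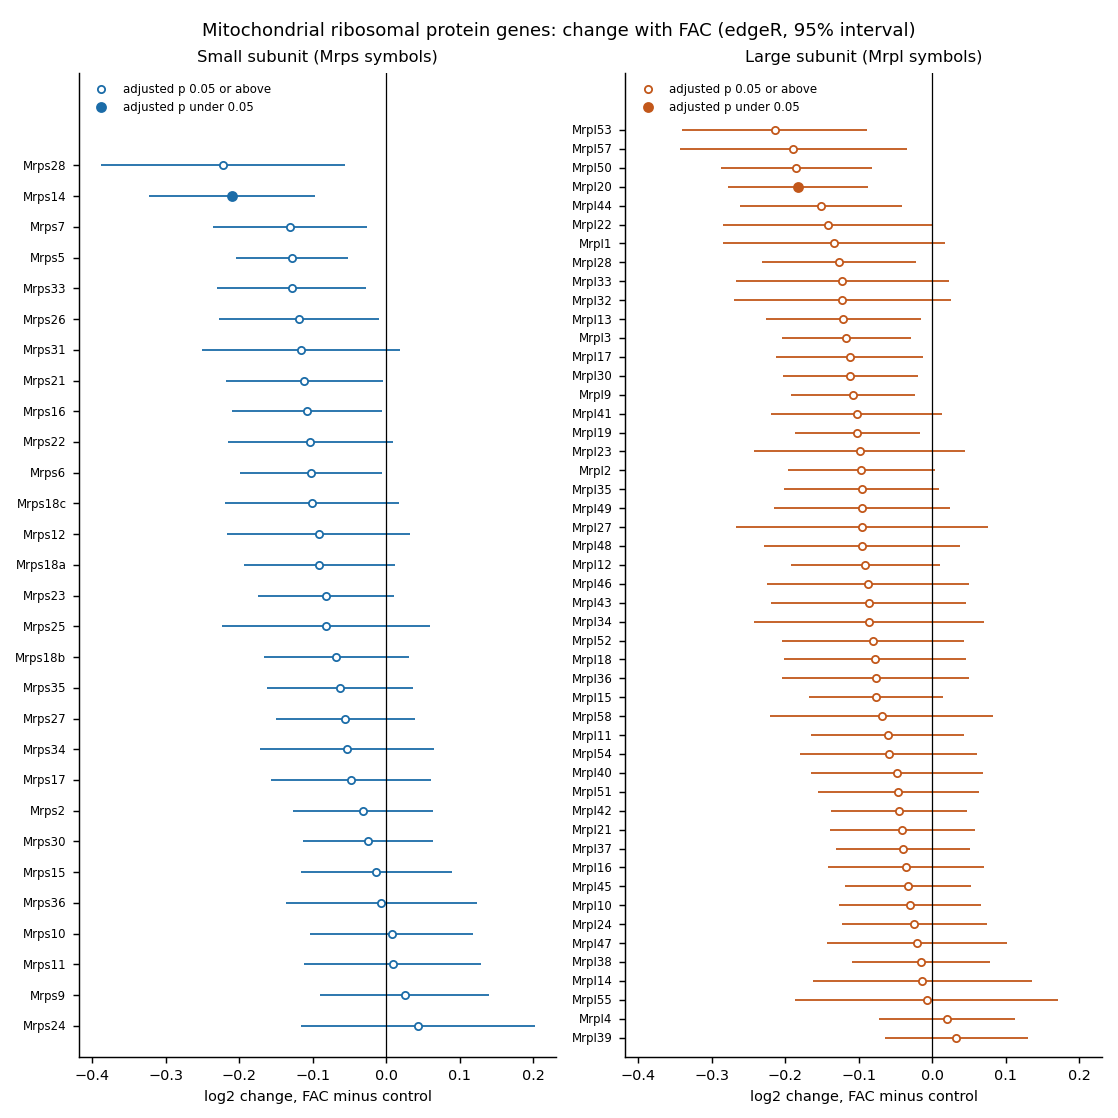
Log2 change in FAC minus control for each of the 78 mitochondrial ribosomal protein genes, small subunit and large subunit in separate panels, with bars for the 95% interval of edgeR and filled points for adjusted p under 0.05. The points lie left of 0 for 72 genes, and the filled points are Mrps14 at -0.21 and Mrpl20 at -0.18.

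In CPM on TMM-scaled libraries, all 4 FAC libraries lay below all 4 control libraries for 16 members (20.5%), 7 of the small and 9 of the large subunit, beside 4.89% of all genes. For 0 members did all FAC libraries lie above, beside 6.17% of all genes. TMM factors were below 1 in each control library and above 1 in each FAC library, and overlap on unscaled counts was not examined. The small subunit genes without overlap were Mrps5, Mrps6, Mrps14, Mrps16, Mrps23, Mrps33 and Mrps35, and the large subunit genes Mrpl9, Mrpl19, Mrpl20, Mrpl28, Mrpl44, Mrpl49, Mrpl50, Mrpl53 and Mrpl57. Their log2 changes ran from -0.21 (Mrpl53) to -0.06 (Mrps35), so separation of the groups did not require a large difference. For Mrps23, without overlap in CPM and at -0.08 in edgeR, the change on log2(TPM + 1) was 0.0014. Within mice, 31 members (39.7%) were lower with FAC in 4 of 4 mice, beside 15.4% of all genes, and 1 member, Mrpl4, was higher in 4 of 4, beside 14.7%. Mrpl4, a relative of bacterial L4, nevertheless differed by a log2 change of only 0.02 (edgeR adjusted p = 0.849).

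Among the small subunit proteins, Mrps14 measured 45.9, 47.8, 47.0 and 43.7 CPM in control mice 1 to 4 and 39.7, 42.0, 40.5 and 37.2 CPM in the same mice with FAC. Every FAC library was below every control library, and the means were 46.1 ± 1.77 and 39.8 ± 2.00 CPM (SD, n = 4). The log2 change was -0.21 with a standard error of 0.05 and a 95% interval of -0.32 to -0.10 (edgeR adjusted p = 0.0468, and 0.0143 with the mouse as a block). This call ended when any 1 library other than control 4 was left out, with an adjusted p of up to 0.131, reached without control 2. It also ended in limma on log2(TPM) or log2(signal) and in edgeR with an effective length offset, at adjusted p from 0.0955 to 0.115.

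Mrps5, related to bacterial S5 near the entry of the messenger RNA channel, measured 116, 116, 113 and 113 CPM in control and 106, 107, 102 and 104 CPM with FAC. The groups did not overlap, the means being 114 ± 1.5 and 105 ± 1.79 CPM (SD, n = 4). Its log2 change of -0.13 (SE 0.04) missed the threshold across libraries (edgeR adjusted p = 0.0693) and passed it with the mouse as a block (0.0384). Mrps28, assigned as the relative of bacterial S1, measured 32.3, 36.9, 32.8 and 33.7 CPM in control and 25.4, 33.1, 27.7 and 30.4 CPM with FAC. FAC was lower in each of the 4 mice, but the groups overlapped because mouse 2 was high under both conditions. Its log2 change of -0.22 (SE 0.08) was the most negative of the 78, with an edgeR adjusted p of 0.144, and 0.0223 with the mouse as a block. Mrps7, related to the bacterial S7 that starts assembly of the small subunit's head, differed by -0.13 (edgeR adjusted p = 0.173).

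The 16 small subunit proteins listed with bacterial relatives, Mrps18c included, had a median log2 change of -0.10, with 12 below 0. The 10 listed as found only in mitochondria, which include the like-named Mrps18b, had a median of -0.08, with 10 below 0. The 4 members above 0 all came from the list with bacterial relatives: Mrps24 (0.04), Mrps9 (0.02), Mrps11 (0.01) and Mrps10 (0.01), none past the test. Mrps36, which carries a mitoribosomal name but was later assigned to the 2-oxoglutarate dehydrogenase complex, stood at -0.01 (edgeR adjusted p = 0.968). It was lower with FAC in 1 of 4 mice.

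The proteins that hold iron-sulphur clusters in structures, relevant to an iron supplement, are Mrps6, Mrps16, Mrps18c, Mrps25 and Mrps18a, the last placed in the large subunit despite its symbol. None of the 5 passed the test, and their log2 changes lay between -0.11 and -0.08, with a median of -0.10 beside -0.09 over all 78 members. Mrps6 measured 88.7, 94.0, 84.2 and 84.1 CPM in control and 82.2, 81.2, 81.4 and 82.3 CPM with FAC. All FAC libraries lay below all control libraries, by a margin smaller than the spread within control. Its log2 change was -0.10 (edgeR adjusted p = 0.242). Mrps16 also had groups that did not overlap, at -0.11 (adjusted p = 0.245 in edgeR), while Mrps18c (-0.10), Mrps18a (-0.09) and Mrps25 (-0.08) had overlapping groups.

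In the large subunit, Mrpl20 measured 98.7, 98.5, 99.0 and 89.9 CPM in control mice 1 to 4 and 87.3, 85.9, 81.7 and 85.2 CPM with FAC. The groups did not overlap, although control mouse 4 stood apart from the other controls and close to the FAC range. The means were 96.5 ± 4.41 and 85.0 ± 2.37 CPM (SD, n = 4), a log2 change of -0.18 with a standard error of 0.04 and a 95% interval of -0.28 to -0.09 (edgeR adjusted p = 0.0417, and 0.0193 with the mouse as a block). The call was kept without control 4 and without FAC 1 and ended without any other single library, with an adjusted p of up to 0.143, reached without FAC 3. In limma on log2(TPM) or log2(signal) and in edgeR with an effective length offset it ended too, at adjusted p from 0.0788 to 0.0909.

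Mrpl50, Mrpl53 and Mrpl57 are large subunit proteins without bacterial relatives. Mrpl50 measured 65.1, 67.3, 63.2 and 61.5 CPM in control and 59.1, 55.4, 54.0 and 57.8 CPM with FAC, with no overlap. Its log2 change was -0.19 (SE 0.05), just short of the threshold across libraries (edgeR adjusted p = 0.0536) and past it with the mouse as a block (0.0296). Mrpl53 measured 21.3, 21.9, 21.8 and 21.3 CPM in control and 18.6, 18.9, 17.7 and 19.2 CPM with FAC. The 4 controls lay within 1 CPM of each other and every FAC library was below them. Its log2 change was -0.21 (SE 0.06; edgeR adjusted p = 0.0654, and 0.0491 with the block). Mrpl57 differed by -0.19, without overlap, at an edgeR adjusted p of 0.178.

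**Figure D2:**
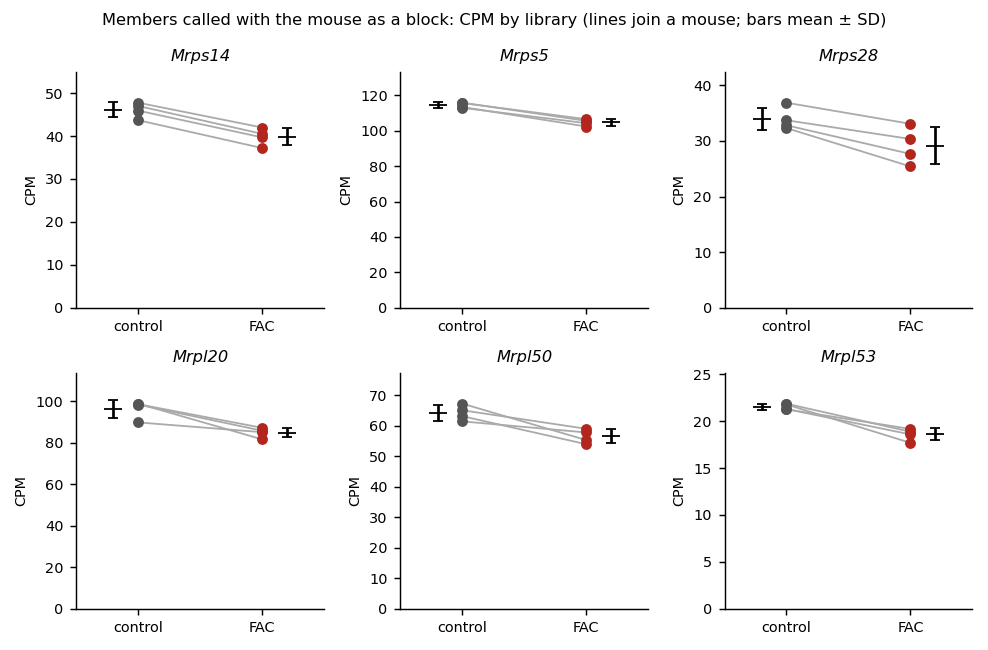
CPM in each library for the 6 members called lower with the mouse as a block, with lines joining the control and FAC library of a mouse and bars for the mean and SD of 4 libraries. Every line descends from control to FAC, and the groups overlap in Mrps28 only.

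The 30 large subunit proteins listed with bacterial relatives had a median log2 change of -0.10, with 29 below 0. The 21 listed as found only in mitochondria, Mrps30 and Mrps18a included, had a median of -0.08, with 20 below 0. By symbol, however, Mrps18a belongs with Mrps18c, which was listed among the proteins with bacterial relatives. The members above 0 were Mrpl39 (0.03, edgeR adjusted p = 0.758) and Mrpl4. Near the exit of the peptide tunnel, Mrpl22, Mrpl23 and Mrpl24 stood at -0.14, -0.10 and -0.02, and Mrpl44, which has a fold related to RNase III, at -0.15. None of these 4 passed the test. In the stalk that recruits translation factors, Mrpl12, the relative of bacterial L7/L12, measured 226, 242, 228 and 229 CPM in control and 205, 220, 206 and 237 CPM with FAC. It was lower in 3 mice and higher in mouse 4, at a log2 change of -0.09 (edgeR adjusted p = 0.328). Mrpl11, at the base of the stalk, stood at -0.06.

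Mrpl10 and Mrpl45 were of particular interest because they flank, on chromosome 11, a stretch of 5 genes that contains Tbx21 and Tbkbp1. Mrpl10 (ENSMUSG00000001445) is the stalk protein that anchors Mrpl12, and Mrpl45 (ENSMUSG00000018882) helps hold the ribosome at the inner membrane. Mrpl10 measured 55.8, 59.0, 56.5 and 60.9 CPM in control and 55.7, 57.5, 56.8 and 57.5 CPM with FAC. The FAC libraries lay within the range of the controls apart from FAC 1, marginally below it, and the means were 58.1 ± 2.35 and 56.9 ± 0.837 CPM (SD, n = 4). The log2 change was -0.03 with a standard error of 0.04 and a 95% interval of -0.13 to 0.07 (edgeR adjusted p = 0.775). On log2(TPM + 1) the change of Mrpl10 was above 0.

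Mrpl45 measured 85.0, 84.7, 83.1 and 84.7 CPM in control and 79.9, 84.2, 80.6 and 85.2 CPM with FAC. The groups overlapped, with FAC mouse 4 above every control. The means were 84.4 ± 0.878 and 82.5 ± 2.61 CPM (SD, n = 4), and the log2 change was -0.03 with a standard error of 0.04 and a 95% interval of -0.12 to 0.05 (edgeR adjusted p = 0.709). As for Mrpl10, the change was above 0 on log2(TPM + 1).

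Between them, Tbx21, which encodes the type 1 T cell transcription factor T-bet, had 72, 204, 92 and 155 counts in control and 8, 9, 3 and 1 with FAC. The groups were far apart in every mouse, at 4.22 ± 1.48 and 0.168 ± 0.115 CPM (SD, n = 4). The log2 change was -4.56 (SE 0.40; edgeR adjusted p = 1.67e-05). Tbkbp1, which encodes a protein that binds the kinase TBK1, had 18, 83, 37 and 74 counts in control and 1, 7, 4 and 5 with FAC, again without overlap. Its log2 change was -3.54 (SE 0.51; edgeR adjusted p = 0.00203), and limma on log2(TPM + 1) gave 0.0649.

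The other genes shown for the neighbourhood did not pass the test. Osbpl7, next to Mrpl10, stood at a log2 change of -0.03 (edgeR adjusted p = 0.881), and Kpnb1 and Npepps, between Tbkbp1 and Mrpl45, at -0.05 (0.483) and -0.02 (0.864). The neighbours that passed the test were the 2 genes Tbx21 and Tbkbp1, beside 3.27% of all genes called in either direction. Farther out, Sp2 (-0.04), Scrn2 (0.06), Sp6 (0.49), Gpr179 (-0.01) and Socs7 (-0.04) had edgeR adjusted p-values from 0.227 (Sp6) to 0.994 (Gpr179). The gene order is that of RefSeq on GRCm38.

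**Figure D3:**
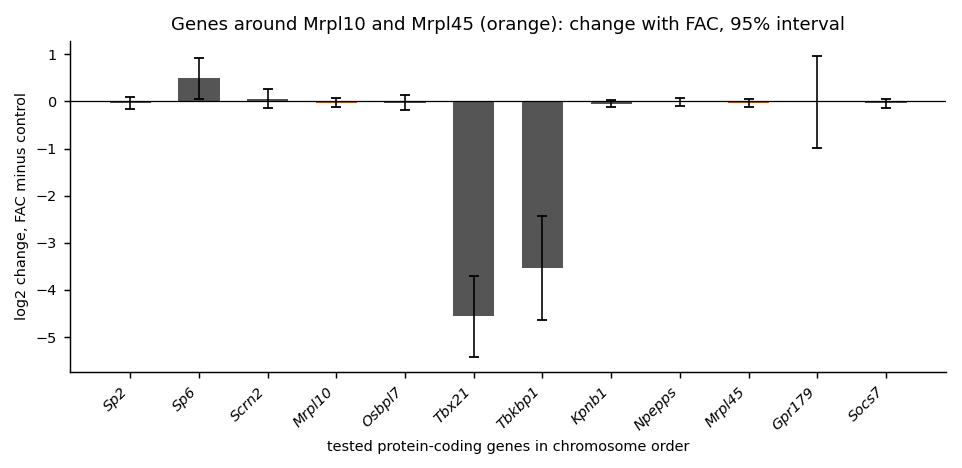
Log2 change in FAC minus control, with 95% intervals from edgeR, for tested protein-coding genes around Mrpl10 and Mrpl45 in chromosome order. Tbx21 at -4.56 and Tbkbp1 at -3.54 lie far below 0, and Mrpl10 and Mrpl45, both at -0.03, lie beside 0 on either side of them.

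Across mice the difference was uneven. The median log2 ratio of CPM over the 78 members was -0.09 in mouse 1, -0.14 in mouse 2, -0.08 in mouse 3 and -0.01 in mouse 4, while the median over all genes tested stayed between -0.01 and 0.00 in each. Accordingly 68, 72, 62 and 40 of the 78 members were lower with FAC in mice 1 to 4. In mouse 4 the small subunit stood at a median of -0.03 and the large subunit at 0.02, so the lower level was not seen there for the large subunit as a whole. With the mouse as a block, the 6 members called lower became 11 without mouse 4, beside 3.58% of the genes tested there called lower, and 0 without mouse 3, beside 0.515%. Without mouse 1 the count was 1, beside 2.03%, and without mouse 2 it was 2, beside 1.34%.

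Genes with symbols of cytosolic ribosomal proteins ordered the mice in the same way, with medians of -0.07, -0.14, -0.04 and 0.03 in mice 1 to 4. Genes not annotated as protein-coding (2393 tested) stood on the other side of 0, with medians of 0.10, 0.09, 0.15 and 0.05 and 0.09 over all mice. The part of that shift in the members' lower values was not tested.

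**Figure D4:**
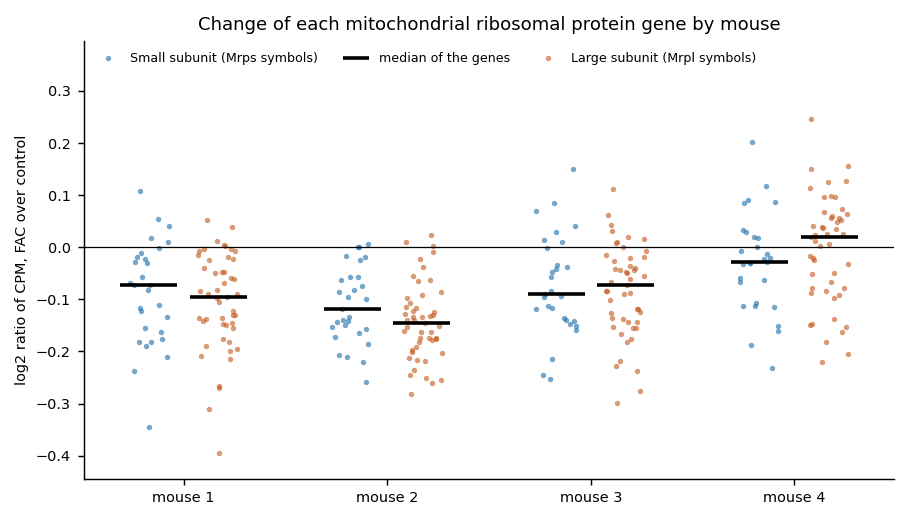
Log2 ratio of CPM, FAC over control, for each member in each of the 4 mice, with small and large subunit proteins in separate colours and black bars at the medians. The medians of the 2 subunits are -0.07 and -0.10 in mouse 1, -0.12 and -0.15 in mouse 2, -0.09 and -0.07 in mouse 3, and -0.03 and 0.02 in mouse 4.

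Levels per length, in TPM averaged over the 8 libraries, differed between members although the mature ribosome holds most of these proteins in 1 copy, Mrpl12 being the known exception. The median member stood at 88.0 TPM, 84.3 for the small and 91.8 for the large subunit. Mrpl52 (329.7 TPM), Mrpl12 (280.0), Mrpl42 (274), Mrps21 (252) and Mrpl30 (239) were highest. Mrpl1 (22.3 TPM), Mrps31 (31.3), Mrps30 (34.4), Mrpl50 (43.2) and Mrpl46 (46.1) were lowest. The highest mean was 14.8 times the lowest over all members and 8.07 times within the small subunit.

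**Figure D5:**
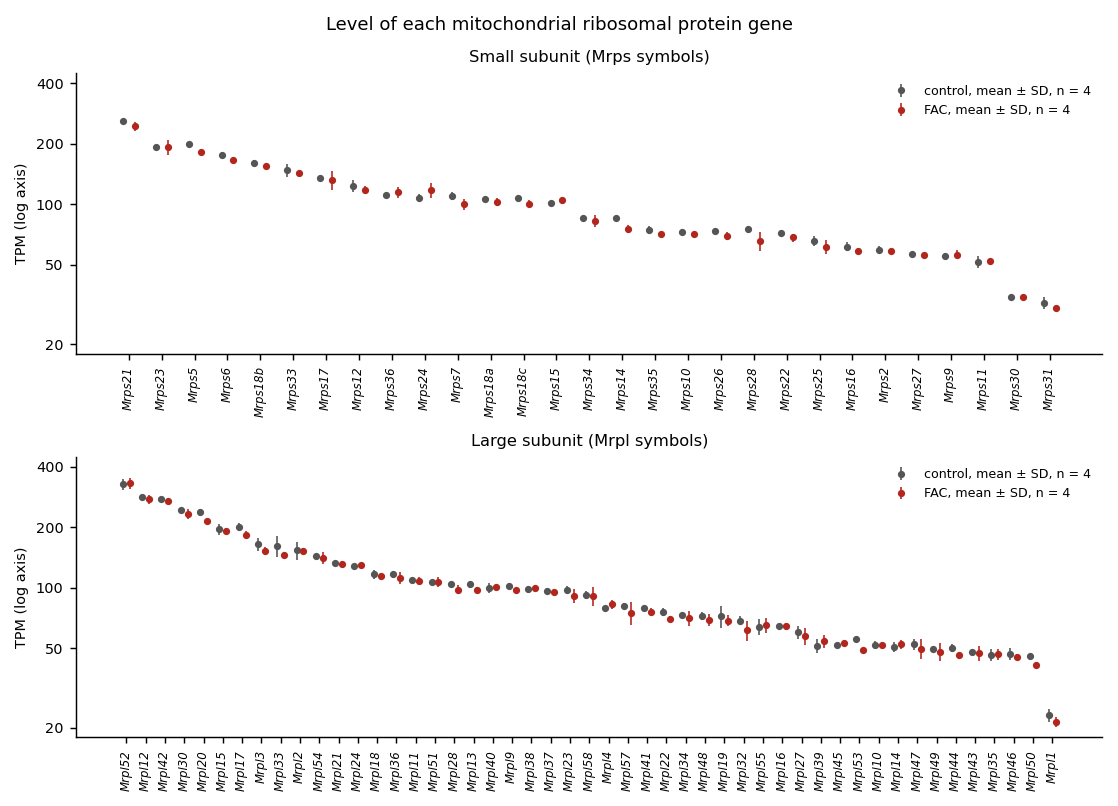
TPM of each member on a log axis, in order of level within each subunit, with points and bars for the mean and SD of 4 control and 4 FAC libraries. Levels run from 22.3 TPM for Mrpl1 to 329.7 TPM for Mrpl52, and control and FAC lie close together for each gene.

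The summed TPM of the 78 members was 8289, 8440, 8208 and 8263 in control mice 1 to 4 and 7924, 8061, 7871 and 8237 with FAC. It was lower with FAC in 4 of 4 mice, with differences of -4.41, -4.49, -4.11 and -0.322%, but the groups overlapped because FAC mouse 4 lay within the controls. The means were 8300.1 ± 99.3 and 8023 ± 163 TPM (SD, n = 4), a difference of -3.34%. In summed CPM, which scales libraries by TMM, the difference was -5.36% and the groups did not overlap. The TMM factors, by which CPM is divided, were 0.985 to 0.997 in control and 1.002 to 1.014 with FAC. As a share of library counts, without these factors, the members differed by -3.92% and the groups overlapped. The ratio of summed TPM between small and large subunit, taken by symbol, was 0.563 ± 0.00447 in control and 0.563 ± 0.0113 with FAC (SD, n = 4), and these values overlapped. Mrps18a, Mrps30 and Mrps36 thus counted as small subunit, and small subunit proteins under other symbols, such as Chchd1, were left out.

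Across the 78 members, taken as a description of genes that share libraries, the log2 change had a Spearman correlation of 0.142 with effective length, 0.217 with GC content and 0.0850 with mean level. Over the 13158 genes with a GC value these were 0.130, 0.0871 and -0.218. The members are short, with a median effective length of 782 bases against 2005 for all genes tested. They also stand at a higher level, with a median of 88.0 TPM against 13.5 TPM. The shares of all genes given beside those of the members were not matched for level or length.

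The partners of the mitoribosome were read from lists of related genes. The 5 mitoribosomal proteins under other symbols had 0 calls and a median log2 change of -0.06, with 4 below 0. Chchd1, a small subunit protein among them, stood at -0.18 and was called only with the mouse as a block (edgeR adjusted p = 0.174, and 0.0321 with the block). The 29 factors of mitoribosome assembly and ribosomal RNA handling had 0 calls with or without the block, a median of -0.06 (0.0070 on log2(TPM + 1)) and 20 below 0. Of 17 translation factors tested, 0 were called, with a median of -0.06 and 13 below 0. With the block, Tufm, the elongation factor that delivers aminoacyl-tRNA, was called lower (-0.13, edgeR adjusted p = 0.0382), as was C1qbp, a matrix protein needed for mitochondrial translation (-0.12, 0.0422). The 20 mitochondrial aminoacyl-tRNA synthetases and the related amidotransferase had 0 calls with or without the block and a median of -0.02, which was 0.06 on log2(TPM + 1).

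The 13 protein-coding genes of mitochondrial DNA, whose messages the mitoribosome translates, had 0 calls. Their median log2 change was 0.15, with 10 above 0, and 0.02 without FAC 1. Their summed TPM was 26382, 28219, 28589 and 25470 in control and 35181, 28253, 31374 and 20080 with FAC. FAC held both the highest and the lowest of the 8 values, and the difference within mice ran from -21.2% in mouse 4 to 33.4% in mouse 1, with 0.118% in mouse 2 and 9.74% in mouse 3. With the mouse as a block, mt-Cytb, of complex III, was called higher (0.19, edgeR adjusted p = 0.0367), and mt-Nd3, of complex I, lower (-0.63, 0.0203). The largest change of the 13 was that of mt-Co3, at 1.21 (SE 0.38; edgeR adjusted p = 0.109). The TPM assigned to these genes, which need not be the level of each message, differed widely. In control, mt-Atp8 had a mean of 8915 TPM and mt-Atp6 180, and mt-Co1 had 5677 and mt-Co3 87.9. These libraries were made by selecting polyadenylated RNA. The part of that selection, or of how reads were assigned between these genes, in the spread of mitochondrial messages was not tested.

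Of 13 regulators of mitochondrial transcription and biogenesis tested, 0 were called, with a median of -0.02, which was 0.05 on log2(TPM + 1). Nrf1, which activates nuclear genes for mitochondrial proteins, stood at -0.16 (edgeR adjusted p = 0.134), and Tfam, which packages and transcribes mitochondrial DNA, at -0.01. Myc, a driver of growth in activated T cells, stood at -0.13 (adjusted p = 0.116 in edgeR) and was called lower with the mouse as a block (0.0270). Cytosolic ribosomal proteins were taken by symbol, which gave 90 genes and let in like-named ones such as Rps19bp1, Rpl39l and Rpl7l1. Of the 90, 1 was called lower, Rpl7l1 (-0.20, SE 0.03, edgeR adjusted p = 0.00874), and 0 higher. With the block 5 were called lower, Rpl7l1, Rps3, Rps27l, Rpl37a and Rpl41, and 0 higher. The median of these 90 was -0.06 with 82 below 0, against -0.09 with 72 of 78 below 0 for the mitochondrial set. Whether the lists differ in their shift was not tested.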

How the data were processed

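RNA sequencing of 8 libraries (4 control, 4 FAC, 1 of each per mouse) was prepared from 250 ng of total RNA with a stranded mRNA kit, per the labels' protocols. STAR 2.7.6a, RSEM 1.3.1, FastQC, DESeq, DESeq2 1.26.0, R 3.6.3 and the build GRCm39 are named in the submitters' processing notes, and the sources used here name no annotation or strand setting. The deposited files give, per the file headers, an estimated count, TPM and effective length (in bases, unit other) for each of 57010 genes and library. The authors also deposited a table of normalised signal for 13751 genes, used for symbols and as an alternative scale. RSEM shares reads between near-identical copies, so a member with a pseudogene copy is uncertain to that extent. Mrpl23-ps1, the only one of the 5 pseudogenes above 10 CPM, had 430 to 649 counts per library.

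Estimated counts were rounded, filtered with edgeR's filterByExpr (minimum count 10, minimum total 15) and scaled by TMM. They were tested with edgeR 4.0.16 (quasi-likelihood, Benjamini-Hochberg over all 13378 genes tested, R 4.3.3). Before that, the procedure without the mouse block was tried on simulated data, in which every added fold change was larger than those of the members. A gene was called at an adjusted p under 0.05. Standard errors are the size of the log2 change over the square root of F. Per-mouse log2 ratios add 0.05 CPM. Named genes are the members called with or without the mouse block, the 10 with the largest absolute log2 change, the 5 highest and 5 lowest in TPM, the short role lists, Mrps30, Mrps36, Mrpl10, Mrpl45 and their nearest neighbours, and called genes of the related lists. Members above 0 or without overlap between groups, genes of the related lists called only with the block, Nrf1 and Tfam were named after their values were seen. The members and lists were chosen with earlier results of these data known. Control and FAC libraries of 1 number come from the same mouse per the labels. Their deviations from the group means correlated at 0.137, 0.0165, 0.0647 and 0.139 across genes in mice 1 to 4. Between libraries of different mice these correlations ran from -0.180 to 0.0331, a range that holds the value of mouse 2. Alternatives were the mouse block, RLE factors, DESeq2 1.42.0, limma-voom (limma 3.58.1), no filter, limma on log2(TPM + 1), log2(TPM + 0.1) and log2(signal + 1), offsets for GC, length and effective length (GC known for 13158 genes, 98.4%), and each library left out. A few genes of the marker lists and of the neighbourhood are not reported here.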

Additional observations from a re-analysis of the deposited data

Results flagged for a closer look

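Of 100 groups of 4 libraries examined for a value standing apart from the other 3, 4 had one, and chance alone gives about 1 in 20. Mrpl20 in control measured 89.9 CPM in mouse 4 beside 98.5 to 99.0 CPM in the other 3 mice, and it is a member that passed the test of the iron comparison. Mrpl45 in control measured 83.1 CPM in mouse 3 beside 84.7 to 85.0 CPM. Mrps30 with FAC measured 75.2 CPM in mouse 1 beside 77.9 to 78.3 CPM. Osbpl7, the neighbour of Mrpl10, measured 21.7 CPM in control mouse 3 beside 19.1 to 19.2 CPM.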

How the results depend on the processing

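The median log2 change of the members stayed below 0 in all 24 fits, between -0.05 and -0.11, while the calls moved. The median over all genes tested moved in 6 of the alternative fits and is not given fit by fit. With the mouse as a replicate block, 919 genes, 6 members and 11 genes of the related lists were called, beside 438, 2 and 1. The same 3 counts were 797, 5 and 3 with DESeq2, 736, 4 and 8 with no filter, 144, 0 and 0 on log2(TPM + 1), 138, 0 and 0 on log2(TPM + 0.1), and 156, 0 and 0 on log2(signal + 1). They were 808, 4 and 7 with the GC and length offset, 1358, 8 and 20 with that offset and the replicate block, and 195, 0 and 0 with the effective length offset. With 1 library left out they ranged from 147 to 549, 0 to 2 and 1 to 6, the 147 without FAC 3. Leaving out a mouse with the block, chosen after seeing the data, gave 601 genes, 1 member and 4 related genes without mouse 1, 454, 2 and 6 without mouse 2, 165, 0 and 1 without mouse 3, and 1217 genes, 11 members and 30 related genes without mouse 4. The share of calls that were higher was 66.4%, 77.8% on log2(TPM + 1), 78.3% on log2(TPM + 0.1), 54.0% with the GC and length offset, and 48.7% with the block as well. In summed CPM the difference was -5.36% for all members and -5.14% for the small subunit, against -3.34% and -3.37% in TPM. Of 78 members, 66 were called in no fit. The cause of these changes was not tested.

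Changes near 0 turned direction, and none of these was called. Of the 72 members below 0, 17 stood above 0 in at least 1 fit, and of the 6 above 0, 5 stood below 0 in at least 1, Mrpl39 being the exception. For the genes followed through all settings, the changes on log2(TPM + 1) were 0.0035 (Mrpl10), 0.021 (Mrpl52), 0.025 (Mrpl45), 0.010 (Mrpl24), 0.0066 (Mrps30), 0.046 (Mrps36), 0.0074 (Kpnb1), 0.011 (Npepps) and 0.00072 (Gpr179), and on log2(TPM + 0.1) 0.0036, 0.021, 0.026, 0.010, 0.0068, 0.046, 0.0074, 0.011 and 0.020. Mrps36 and Mrpl42 stood at 0.036 and 0.0032 with the GC and length offset, and at 0.036 and 0.0035 with the block as well. Mrps36 stood at 0.011 with the effective length offset, 0.027 without control 2, 0.038 without FAC 3 and 0.034 with the block and without mouse 3. Mrpl24 stood at 0.0036 without control 2, and at 0.00026 and 0.0024 with the block and without mouse 1 or 2. Gpr179 stood at 0.016 with the block, 0.11 with limma-voom, 0.034 on log2(signal + 1), 0.26, 0.16, 0.024 and 0.23 without control 1, control 3, FAC 3 or FAC 4, and 0.12 and 0.24 with the block and without mouse 1 or 3. Osbpl7 stood at 0.016 without control 3, 0.0066 without FAC 3 and 0.055 with the block and without mouse 3, where Scrn2 stood at -0.0021 and Npepps at 0.018. Sp2 stood at 0.013 without control 4. Over the fits that leave out 1 library, the lowest values of these genes were -0.055 (Mrpl24, without control 4), -0.048 (Mrps36, without FAC 2), -0.072 (Sp2, without FAC 4), -0.085 (Osbpl7, without FAC 2) and -0.30 (Gpr179, without control 4). Members held 421 or more counts in each library and Gpr179 held 7 to 32, and counting error weighs most on the lowest counts.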
